A study of Mus musculus with 12 samples.

Results

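MYC, its partner MAX, the transferrin receptor CD71 and a set of amino acid transporters were followed in CD4+ T cells of mice with intact regulatory T (Treg) cells and of mice whose Treg cells lack TET2 and TET3. The 10 genes were taken by name (Myc, Mycn, Max, Slc7a5, Slc3a2, Slc1a5, Slc7a6, Slc38a1, Slc38a2 and Tfrc) from the 26608 genes listed for every library. The rule uses no measured value, but the genes were chosen with earlier results of these data known. CD4+ T cells without YFP(FOXP3) were sorted from 12 mice aged 14 weeks, the spleen and the lymph nodes (cervical, inguinal) of a mouse being pooled, and sequenced as RNA. Each of the 3 groups held 4 mice, and each mouse gave 1 library. All mice carried Foxp3Cre, a knock-in in which YFP-Cre is made in cells that express Foxp3. The WT group was Foxp3Cre WT, and the other groups were Foxp3Cre Tet2/3 fl/fl (Tet2/3 DKO) mice that the study divided into DKO-moderate and DKO-severe by the total number of leukocytes in spleen and lymph nodes. The deletion is meant for cells with past or present Foxp3 expression, but this Cre has been described as leaky, and the share of deleted cells was not measured here. A FOXP3-negative DKO sample can hold both ex-Treg cells and cells that never carried the deletion.

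A naive T cell takes up few nutrients, and stimulation through the T cell receptor raises transport of amino acids, glucose and iron together with growth. MYC, a basic helix-loop-helix leucine zipper factor, binds DNA as a heterodimer with MAX at E-boxes (CACGTG) and is known in T cells for switching on growth and nutrient uptake genes after activation; MYCN is its relative. SLC7A5 (LAT1) imports large neutral amino acids such as leucine and, like SLC7A6, reaches the surface as a heterodimer with the heavy chain SLC3A2 (CD98). SLC1A5 (ASCT2) exchanges glutamine, serine and other neutral amino acids, SLC38A1 and SLC38A2 (SNAT1 and SNAT2) bring in glutamine and alanine with sodium, and Tfrc encodes CD71, which takes up transferrin-bound iron.

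The Tfrc messenger RNA is a textbook case of control by iron, through hairpins in its 3′ UTR that are bound by the iron regulatory proteins. They are shown because read counts of Tfrc also carry this layer of control. In the longest GENCODE M21 3′ UTR of Tfrc, of 2458 bases, 4 stretches matched a hairpin pattern of 17 bases (a C, 5 bases, the loop CAGTG followed by A, C or T, and 5 bases that pair with the first 5, G-U pairs allowed). The capitals mark the conserved loop bases, and the name gives the position of the first base in the 3′ UTR.
Tfrc 889: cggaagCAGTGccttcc
Tfrc 1268: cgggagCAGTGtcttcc
Tfrc 1333: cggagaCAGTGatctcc
Tfrc 1380: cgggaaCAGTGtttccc
Of 20960 genes searched in the same way on the sense strand, 94 (0.448%) held at least 1 match, and Tfrc was the only gene with 3 or more. The other 9 genes of the set held 0. For the E-box, RefSeq promoters of 300 bases (250 before and 50 after the start, GRCm38.p6) were found for 6 of the 10 genes (Max, Mycn, Slc38a2, Slc3a2, Slc7a6 and Tfrc), and 1 of the 6, Max, held CACGTG, which reads the same on both strands. The share over all 32851 promoters was 7.15%. The Max E-box lies at the RefSeq start site, which is upstream of the Max start in GENCODE M21. It is shown with the motif in capitals and read on the minus strand at chr12:76962234-76962263.
Max E-box: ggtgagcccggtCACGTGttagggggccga
These matches are descriptions of sequence and do not show binding.

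The genes lie on 6 chromosomes (GRCm38 coordinates, GENCODE M21). Slc38a1 (chr15:96571418-96642913) and Slc38a2 (chr15:96687392-96699730) are neighbours on the minus strand with 44478 bases between them. Myc (chr15:61985391-61990374, plus strand) is on the same chromosome, and Tfrc is at chr16:32608920-32632794 on the plus strand. Slc1a5 is at chr7:16781340-16798274 on the plus strand, and Slc7a5 at chr8:121881150-121907694 on the minus strand. Slc7a6 is at chr8:106168857-106198706 (plus strand), Slc3a2 at chr19:8706882-8723369 (minus strand), Max at chr12:76937269-76962201 (minus strand) and Mycn at chr12:12936093-12941914 (minus strand).

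Between 29254260 and 42133536 reads per library fell on genes, and 9 of the 10 genes passed the filter on low counts. T cell markers summed to 4504.0 to 5138.5 CPM (read counts relative to library size, scaled by the TMM method) in WT libraries. The sums were 4960.0 to 5227.1 CPM in DKO-moderate and, below both, 3896.1 to 4391.2 CPM in DKO-severe. Of the 8 T cell markers, 4 fell and 1 rose in DKO-severe against WT. Tet2, counted over the whole gene, ranged from 43.3 to 62.2 CPM in WT and 56.7 to 65.8 CPM in DKO-severe, and Tet3 from 167.4 to 210.4 and 87.8 to 102.5 CPM. Whole-gene counts include exons outside a floxed segment, so they do not measure the deletion. The sex of the mice is not in the labels. The 4 Y-linked genes summed to 0.0 CPM in WT 2 and DKO-moderate 2 and 4, to 0.6 CPM in DKO-severe 3 and to 369.8 to 555.8 CPM in the other libraries. Markers of other cells were not evenly spread. Against WT, all 10 neutrophil markers rose in DKO-severe, and their sum was 9.6 to 2051.9 CPM in DKO-severe, with the top values in DKO-severe 1 and 2, against 0.0 to 1.9 CPM in WT. B cell markers were highest in DKO-severe 2 (383.0 CPM) and, among WT, in WT 3 (212.4 CPM). Monocyte and macrophage markers (2 of 8 higher and 1 lower in DKO-severe) summed to 652.3 and 555.4 CPM in DKO-severe 1 and 2, 217.2 and 243.2 CPM in DKO-severe 3 and 4, and 217.8 to 391.8 CPM in WT, with WT 3 the highest. Naive T cell markers fell (7 of 8) and proliferation markers rose (10 of 10) in DKO-severe. In such bulk samples, fewer cells of a type and less RNA per cell cannot be told apart.

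DKO-severe CD4+ T cells had less Myc and Slc38a2 RNA and more Slc1a5 and Tfrc RNA than WT cells, whereas the CD98 complex genes Slc7a5, Slc3a2 and Slc7a6, and Slc38a1, did not pass the test. This comparison asks how nutrient uptake genes stand in the T cells of the most inflamed mice. Of the 9 genes tested, 4 passed in DKO-severe against WT (edgeR adjusted p under 0.05), 2 higher and 2 lower. The share over all 16035 genes tested was 52.6%, with 26.6% higher and 25.9% lower, and the count of 4 in 9 lies near that share. The median log2 fold change was -0.04 over the 9 genes and -0.01 over all genes. The 4 libraries of each group did not overlap for 4 of the 9 genes, against 51.9% of all genes.

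**Figure D1:**
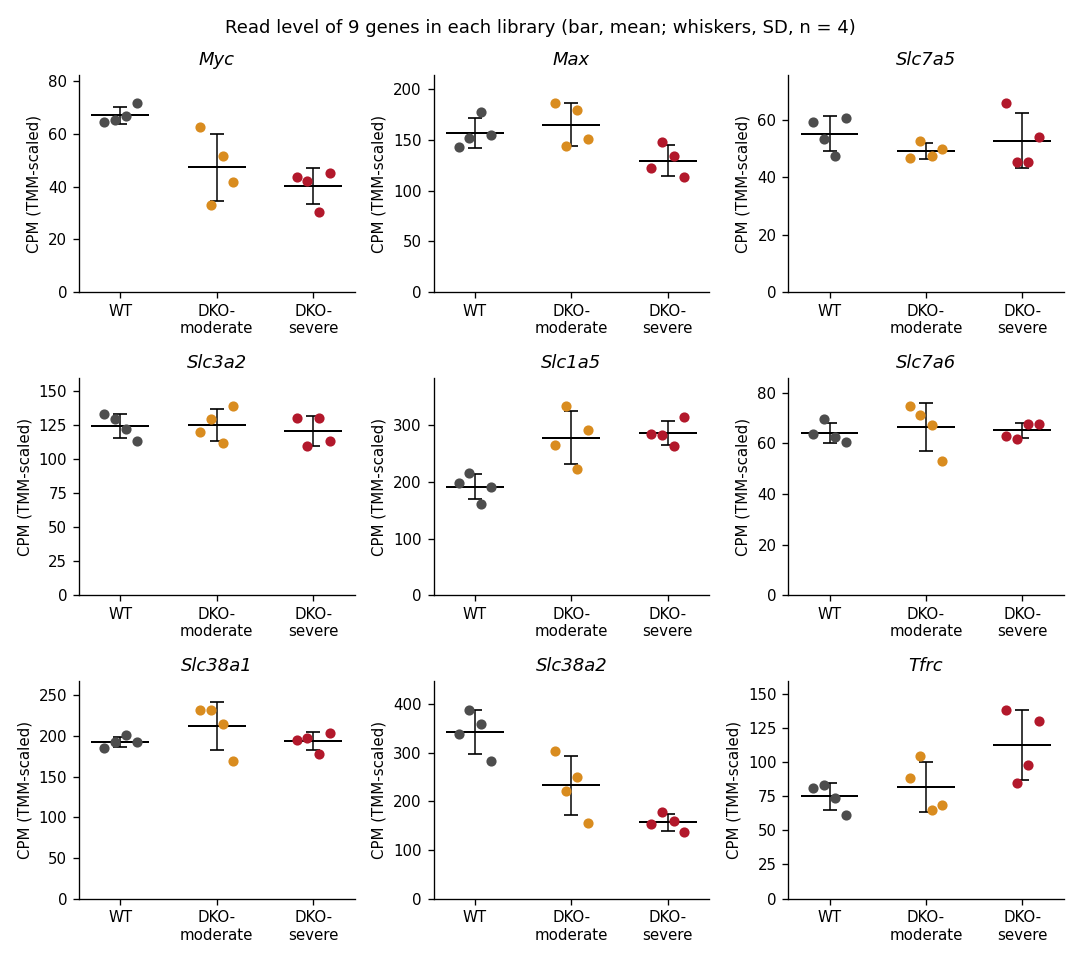
TMM-scaled CPM of the 9 tested genes in each of the 12 libraries (points), grouped as WT, DKO-moderate and DKO-severe, with the mean (bar) and SD (whiskers, n = 4); every axis starts at 0. Slc38a2 steps down from 342.7 to 233.1 to 156.8 CPM, Slc1a5 is already at 278.2 CPM in DKO-moderate, and Slc3a2 stays near 121 to 125 CPM.

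MYC and its partners come first. Myc was at 64.5, 65.1, 66.9 and 71.6 CPM in WT 1 to 4, and DKO-severe 1 to 4 had 43.8, 42, 30.2 and 45.1 CPM. Every DKO-severe library lay below every WT library. The mean was 67.0 ± 3.2 CPM in WT and 40.3 ± 6.8 CPM in DKO-severe (SD, n = 4), a change of -0.73 on the log2 scale (SE 0.18, 95% interval -1.12 to -0.35, edgeR adjusted p = 0.00413). In DKO-moderate, Myc was at 62.4, 33.0, 51.6 and 41.9 CPM. All 4 lay below the lowest WT library, but they ranged widely, with DKO-moderate 1 close to WT. DKO-moderate 2 and 4 and DKO-severe 3, whose Y-linked sums were near 0, were the lowest of their groups, while WT 2 was not. DKO-moderate 2 and 4 also had the lowest naive T cell marker sums of their group. These were 2859.9 and 2839.9 CPM, against 4417.3 and 4667.0 CPM in DKO-moderate 1 and 3. Their activated T cell marker sums were the highest of the group. DKO-severe 3, at 2001.4 CPM, was not the lowest of its group in naive markers. The parts of sex and of naive or activated cells in this spread were not tested. Relative to WT, the change of -0.50 on the log2 scale (SE 0.17, edgeR adjusted p = 0.0669) missed the threshold, while the exact permutation test on CPM gave p = 0.029 (two-sided), the smallest p that 4 libraries against 4 allow. Myc passed without DKO-moderate 1 (-0.67, edgeR adjusted p = 0.0171), with DESeq2 (-0.50, adjusted p = 0.0253), with a term for Y-linked genes (-0.44, adjusted p = 0.0375) and with scaling to CD3 transcripts (-0.74, adjusted p = 0.0255). DKO-severe and DKO-moderate overlapped, and their difference of -0.23 (95% interval -0.61 to 0.15, edgeR adjusted p = 0.36) was within the spread.

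Mycn, the neuroblastoma relative of Myc, was nearly silent in every library. It had 1, 0, 5 and 2 reads in WT, 0, 1, 1 and 3 in DKO-moderate and 3, 1, 4 and 1 in DKO-severe, and it was not tested. Max, which dimerizes with MYC and with the MXD repressors, had 142.5, 152.1, 176.9 and 154.5 CPM in WT libraries, 186.0, 143.6, 179.5 and 150.3 in those of DKO-moderate mice and 122.2, 147.9, 134.1 and 113.4 in those of DKO-severe mice. The groups overlapped in every comparison. Max fell between DKO-moderate and DKO-severe, with a log2 fold change of -0.35 (SE 0.11, edgeR adjusted p = 0.0453), a call that held in 4 of the 12 fits that left out 1 library and ended in the other 8 (adjusted p up to 0.175, without DKO-severe 4). Against WT the Max log2 fold change was 0.07 in DKO-moderate (edgeR adjusted p = 0.679) and -0.27 in DKO-severe (edgeR adjusted p = 0.0558). The latter passed with limma voom (-0.26, adjusted p = 0.0259), CD3 scaling (-0.44, 0.0384) and a term for Y-linked genes (-0.28, 0.0484), and in 2 of the 12 fits that left out 1 library (without DKO-moderate 2 or DKO-severe 2), but was 0.29 with the proliferation term (adjusted p = 0.648). Per kilobase of exon, Myc stood at 0.343 of Max in WT cells, at 0.224 in DKO-moderate cells and at 0.247 in DKO-severe cells (geometric means of the ratio within a library). The DKO-moderate ratio lay below WT in all libraries (difference -0.61 on the log2 scale, exact permutation test, two-sided p = 0.029, adjusted p = 0.086 over 12 ratio tests), and the correction was not passed.

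Among the amino acid transporters, SLC38A2 showed the largest difference of the set. WT 1 to 4 held 338.8, 389.3, 360.4 and 282.5 CPM of Slc38a2, and DKO-severe 1 to 4 held 153.5, 178.8, 158.7 and 136.4 CPM. The lowest WT library was above the highest DKO-severe library. DKO-severe held 0.458 of the WT level (log2 fold change -1.13, SE 0.17, 95% interval -1.51 to -0.75, edgeR adjusted p = 0.000239). DKO-moderate libraries lay between, at 303.5, 222.4, 249.8 and 156.6 CPM, overlapping both other groups. The lowest of them were again DKO-moderate 2 and 4, without Y-linked RNA, whereas WT 2, also without it, was the highest of WT. DKO-moderate 2 and 4 were also the lowest of their group in naive T cell marker sums. From WT to DKO-moderate to DKO-severe, the mean stepped from 342.7 ± 45.2 to 233.1 ± 61.1 and 156.8 ± 17.4 CPM. Both steps passed the test, at -0.56 (SE 0.17, edgeR adjusted p = 0.0451) from WT to DKO-moderate and -0.57 (SE 0.17, edgeR adjusted p = 0.0368) from DKO-moderate to DKO-severe. Neither step was firm, since the first held in 4 and the second in 7 of the 12 fits that left out 1 library, with adjusted p up to 0.122 (without WT 2) and 0.121 (without DKO-severe 4), and the exact permutation test gave p = 0.057 and p = 0.086. Naive T cell markers moved in the same direction as Slc38a2, their sum spanning 5471.2 to 6060.1 CPM over WT libraries, 2839.9 to 4667.0 CPM over DKO-moderate and 1831.0 to 2431.6 CPM over DKO-severe libraries, and their part in the result was not tested.

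SLC38A1, the neighbouring gene and a transporter with similar substrates, did not pass the test in the 3 comparisons. It did without DKO-moderate 4 in DKO-moderate against WT (0.22, edgeR adjusted p = 0.0439), and with limma voom in DKO-severe against DKO-moderate (-0.21, adjusted p = 0.0484). Slc38a1 values were 185.8, 192.9, 201.4 and 192.2 CPM for WT mice, 231.6, 232.7, 215.1 and 169.2 CPM for DKO-moderate mice and 195.7, 197.3, 178.2 and 203.6 CPM for DKO-severe mice. The difference between DKO-severe and WT was 0.00 with a 95% interval of -0.21 to 0.22 (edgeR adjusted p = 0.97), and that between DKO-moderate and WT was 0.14 (edgeR adjusted p = 0.358). Taken within each library and per kilobase of exon, the ratio of Slc38a1 to Slc38a2 ran from -2.22 to -1.76 on the log2 scale over WT libraries, from -1.59 to -1.09 over DKO-moderate libraries and from -1.06 to -0.63 over DKO-severe libraries. The 3 groups did not overlap in this ratio. The difference was 1.13 between DKO-severe and WT, 0.71 between DKO-moderate and WT, and 0.42 between the DKO groups, each with an exact permutation p = 0.029 (two-sided, 4 libraries against 4) and an adjusted p = 0.086 over 12 tests, the lowest this family of tests gave.

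**Figure D2:**
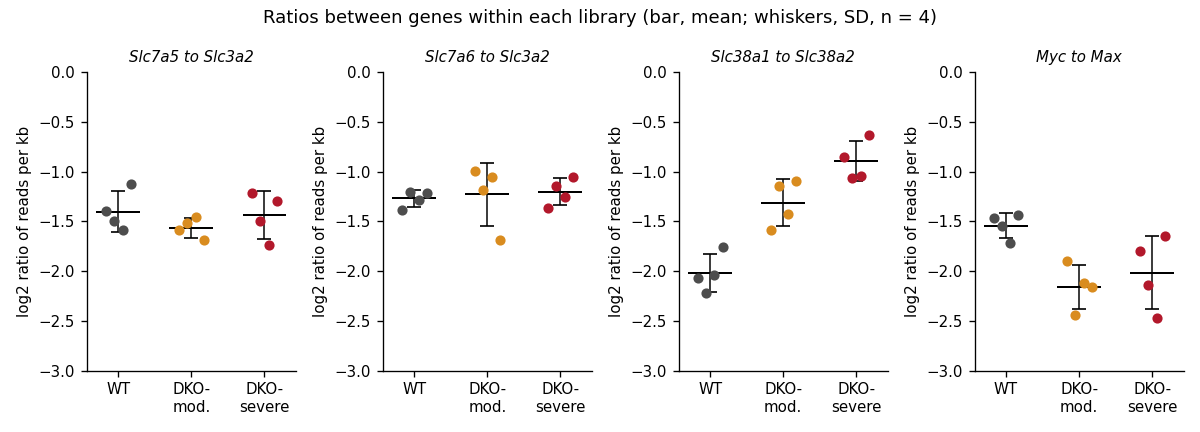
Log2 ratio of reads per kilobase of exon between pairs of genes within each library (points) for the 3 groups, with mean (bar) and SD (whiskers, n = 4). The ratio of Slc38a1 to Slc38a2 has means of -2.02 (WT), -1.31 (DKO-moderate) and -0.89 (DKO-severe) without overlap, while Slc7a5 to Slc3a2 and Slc7a6 to Slc3a2 overlap between groups.

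Slc1a5, the ASCT2 exchanger, stood at 199.0, 215.3, 161.7 and 191.2 CPM in the WT libraries. It stood at 264.8, 333.6, 223.0 and 291.5 CPM with moderate and at 284.0, 283.5, 263.9 and 314.1 CPM with severe disease. Every DKO library of either class lay above every WT library. The means were 191.8 ± 22.4, 278.2 ± 46.5 and 286.4 ± 20.7 CPM. The log2 fold change was 0.58 in DKO-severe (SE 0.12, 95% interval 0.31 to 0.85, edgeR adjusted p = 0.00209) and 0.54 in DKO-moderate (SE 0.12, 95% interval 0.27 to 0.81, edgeR adjusted p = 0.0118). Between the DKO groups the difference was 0.04, with an interval of -0.23 to 0.31 (edgeR adjusted p = 0.833). Slc1a5 was thus the one gene of the set that passed in both comparisons with WT and was higher in both. It passed in all 12 fits that left out 1 library in each of these comparisons. The DKO-moderate difference missed the threshold when scaled to CD3 transcripts (0.28, edgeR adjusted p = 0.075), with the proliferation term (adjusted p = 0.413) and without WT 3, DKO-severe 1 and DKO-severe 2 (0.46, adjusted p = 0.0536). The DKO-severe difference missed it with the neutrophil and B cell, the plasma cell and the proliferation terms (edgeR adjusted p up to 0.595).

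For the leucine transporter LAT1, the light chain Slc7a5 gave 59.1, 53.1, 47.4 and 60.7 CPM in WT mice, 46.5, 52.5, 47.3 and 49.9 CPM in DKO-moderate mice and 65.7, 45.3, 45.4 and 54.1 CPM in DKO-severe mice. The groups overlapped, and the highest value and the lowest value of the gene were both from DKO-severe mice. The log2 fold change was -0.07 in DKO-severe (95% interval -0.33 to 0.20, edgeR adjusted p = 0.67) and -0.17 in DKO-moderate (95% interval -0.43 to 0.10, edgeR adjusted p = 0.372), the latter passing, of the settings tried, with scaling to CD3 transcripts alone (-0.41, adjusted p = 0.0269). Its heavy chain Slc3a2 gave 133.4, 129.3, 122.4 and 113.2 CPM in WT mice, 119.8, 129.6, 111.6 and 138.8 CPM in DKO-moderate mice and 130.4, 109.8, 130.0 and 113.2 CPM in DKO-severe mice. These values had the narrowest interval of the set, -0.24 to 0.15 around a log2 fold change of -0.04 (DKO-severe against WT, edgeR adjusted p = 0.706). In DKO-moderate the Slc3a2 log2 fold change was 0.00 (95% interval -0.19 to 0.20, edgeR adjusted p = 0.987), and it became -0.25 (adjusted p = 0.0422) with scaling to CD3 transcripts, which moved the median of all genes in this comparison from 0.00 to -0.25 as well. Slc7a6, the light chain that exchanges cationic for neutral amino acids, ranged from 60.7 to 69.6 CPM (WT), 53.2 to 74.6 CPM (DKO-moderate) and 61.9 to 67.8 CPM (DKO-severe), and differed by 0.02 on the log2 scale between DKO-severe and WT (95% interval -0.19 to 0.24). The ratios of the light chains to Slc3a2 within a library moved by at most 0.16 on the log2 scale in size (Slc7a5, DKO-moderate against WT, -0.16, exact permutation p = 0.23).

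Tfrc, the CD71 gene, measured 81.3, 83.3, 73.7 and 60.9 CPM in WT libraries. DKO-moderate libraries measured 88.6, 104.7, 64.7 and 68.6 CPM, and DKO-severe libraries 138.5, 84.5, 97.9 and 130.1 CPM. All DKO-severe libraries exceeded WT, but by little for DKO-severe 2, at 84.5 against 83.3 CPM in WT 2. The means were 74.8 ± 10.2, 81.7 ± 18.6 and 112.8 ± 25.7 CPM, with a log2 fold change of 0.59 for DKO-severe against WT (SE 0.19, 95% interval 0.19 to 1.0, edgeR adjusted p = 0.0186). The call ended without DKO-severe 1 (0.48, adjusted p = 0.0589), without WT 4 (0.50, adjusted p = 0.0556) and with scaling to CD3 transcripts (0.44, adjusted p = 0.058). In DKO-moderate the difference was 0.13 (95% interval -0.28 to 0.53, edgeR adjusted p = 0.675). DKO-severe against DKO-moderate gave 0.47 (edgeR adjusted p = 0.0936), which passed with DESeq2 (0.54, adjusted p = 0.0323) and with limma voom (0.51, adjusted p = 0.0436).

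Erythroid precursors and dividing cells of any type carry much CD71, so their markers are given beside Tfrc. The erythroid markers, 8 of 10 found in the files, summed to 49.0, 46.5, 13.6 and 13.4 CPM in DKO-severe 1 to 4 and 0.3 to 20.5 CPM in WT, and most of that was globin. Alas2, the heme synthesis enzyme of red cell precursors, reached at most 1.6 CPM. Tfrc was 97.9 and 130.1 CPM in the DKO-severe libraries with the lowest erythroid sums. With the mean log2 CPM of the erythroid markers as a term, the Tfrc log2 fold change was 0.74 (edgeR adjusted p = 0.133). The proliferation markers summed to 1558.4, 972.9, 1353.3 and 2077.9 CPM in DKO-severe 1 to 4 and to 436.5 to 508.1 CPM in WT. DKO-severe 2 was the lowest of its group in both Tfrc and these markers, while DKO-severe 1 was highest in Tfrc and DKO-severe 4 in the markers. With the mean log2 CPM of the proliferation markers as a term, Tfrc differed by 0.49 (edgeR adjusted p = 0.721). That edgeR fit left 0 of all genes past the threshold in this comparison (2332 at an unadjusted p under 0.05). The part of erythroid and dividing cells in the Tfrc difference was not tested.

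**Figure D3:**
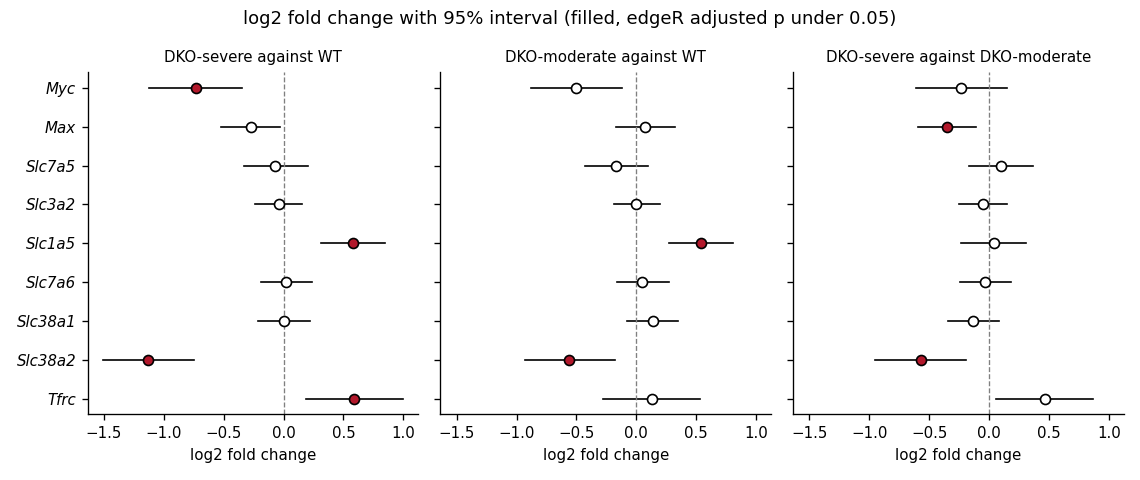
Log2 fold change of the 9 tested genes in the 3 comparisons, with 95% intervals from the edgeR fit over 12 libraries; filled points passed an adjusted p under 0.05. Slc38a2 is filled in all panels, Slc1a5 in both comparisons with WT, and the intervals of Slc3a2, Slc7a5, Slc7a6 and Slc38a1 span 0 throughout.

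Across the set, 2 of the 9 genes passed in DKO-moderate against WT (Slc1a5 higher, Slc38a2 lower), against 17.1% of all genes (12.3% higher, 4.74% lower), and the libraries did not overlap for 2 (Myc and Slc1a5), against 24.8% of all genes. In DKO-severe against DKO-moderate, 2 passed, both lower (Max and Slc38a2), against 20.1% of all genes (9.41% higher, 10.7% lower), and no gene of the 9 had groups without overlap, against 21.3%. These comparisons share libraries, so the values of a gene in them are not independent. Without both DKO-severe 1 and 2, the libraries with most neutrophil RNA, Myc, Slc1a5, Slc38a2 and Tfrc still passed in DKO-severe against WT, Tfrc at 0.64 (edgeR adjusted p = 0.0307). Leaving out WT 3 as well ended the Tfrc call (0.60, adjusted p = 0.057). With neutrophil and B cell marker sums as terms, 1 of the 4 calls was left (Slc38a2, -1.10, edgeR adjusted p = 0.0438). The other differences were -0.64 (SE 0.34) for Myc, 0.48 (SE 0.19) for Slc1a5 and 0.43 (SE 0.32) for Tfrc, and the number of calls over all genes went from 8428 to 3149.

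Levels can be compared between genes only per length of exon. In WT the order of mean CPM per kilobase was Max (79.9), Slc38a2 (73.6), Slc1a5 (69.4), Slc3a2 (41.2), Myc (27.4), Slc38a1 (18), Slc7a6 (17.1), Slc7a5 (15.7), Tfrc (14.4) and Mycn (0.0203). The first 3 overlapped in their spread over libraries, and so did the neighbours from Slc38a1 to Tfrc. In DKO-moderate the order was Slc1a5 (101), Max (84.2), Slc38a2 (50), Slc3a2 (41.3), Slc38a1 (19.8), Myc (19.3), Slc7a6 (17.7), Tfrc (15.7) and Slc7a5 (14.0), with overlap between neighbours except that Max stood clear of Slc38a2 and Slc3a2 of Slc38a1. In DKO-severe it was Slc1a5 (104), Max (66.1), Slc3a2 (40.0), Slc38a2 (33.7), Tfrc (21.7), Slc38a1 (18), Slc7a6 (17.4), Myc (16.5) and Slc7a5 (15.0). Here Slc1a5 stood clear of Max and Max of Slc3a2, Slc38a2 stood clear of Tfrc, and the other neighbours overlapped. In all 3 groups the CD98 heavy chain had on average more reads per kilobase than the light chains Slc7a5 and Slc7a6 put together. The order depends on which transcripts set the length: with all annotated transcripts, Slc38a1 ranked 9 in WT.

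The genes around the set were described by 7 lists chosen by function. Their counts are to be read beside the shares over all genes. These were 26.6% higher and 25.9% lower in DKO-severe against WT, and 12.3% and 4.74% in DKO-moderate against WT. The DKO-severe counts for the MYC/MAX/MXD network, iron handling and mTORC1 lie near these shares, and no list was tested against them. Of the other members of the MYC/MAX/MXD network, 2 of 11 rose and 3 fell in DKO-severe against WT. Mxd3, a MAX partner that represses E-box genes and is made in dividing cells, averaged 1.5 ± 0.3 CPM for WT, 5.8 ± 3.3 CPM for DKO-moderate and 11.8 ± 4.6 CPM for DKO-severe mice (log2 fold change 2.96, SE 0.40, edgeR adjusted p = 9.76e-05). Mga, a large MAX partner, fell from 209.6 to 144.8 CPM (log2 fold change -0.53, adjusted p = 0.0219) and Zbtb17, which encodes the MYC partner MIZ1, from 43.6 to 35.8 CPM (-0.28, adjusted p = 0.00711). The falls of this list did not hold with scaling to library size alone, which left 4 higher and 0 lower, and without DKO-severe 4 only 1 gene fell. In DKO-moderate against WT, 2 of the 11 rose and 0 fell, and with CD3 scaling 2 rose and 3 fell.

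**Figure D4:**
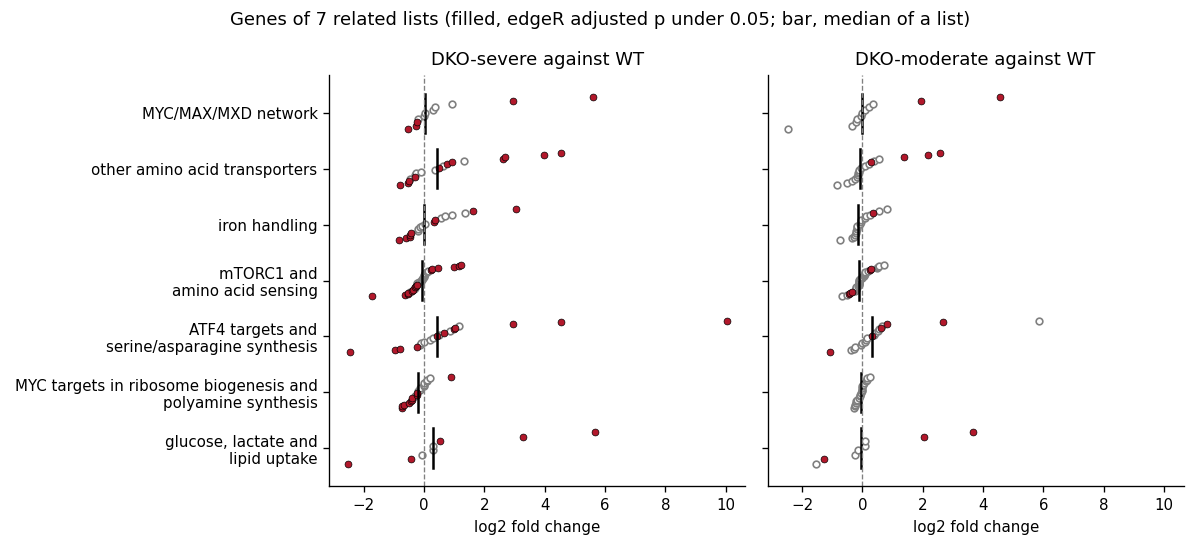
Log2 fold change of every tested gene of the 7 lists in DKO-severe and DKO-moderate against WT; filled points passed an edgeR adjusted p under 0.05 and the bar is the median of a list. The ribosome biogenesis list has 9 filled points below 0 and 1 above in DKO-severe and none filled in DKO-moderate.

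Of 20 MYC targets in ribosome biogenesis and polyamine synthesis, 9 fell, 1 rose and 10 did not pass in DKO-severe, beside 25.9% lower and 26.6% higher over all genes, with a median log2 fold change of -0.21 against -0.01 for all genes. Nop56, a core protein of box C/D snoRNPs, was at 170.9 ± 26.3 CPM in WT and 103.3 ± 7.1 in DKO-severe (-0.73, edgeR adjusted p = 0.00065), and Rrp9, which acts in the processing of ribosomal RNA, was at 60.1 ± 6.6 and 36.2 ± 0.7 CPM (-0.73, adjusted p = 0.000189). Odc1, the first enzyme of polyamine synthesis and a classic MYC target, went the other way, from 140.8 ± 23.3 to 259.0 ± 66.5 CPM (0.88, adjusted p = 0.00363). In DKO-moderate against WT, 0 of the 20 passed with edgeR (2 at an unadjusted p under 0.05, both lower) and 1 with DESeq2, but 7 were lower with scaling to CD3 transcripts, where the median of the list was -0.29. Between 5 (library size alone) and 12 (CD3 transcripts) of the 20 fell under the other scalings, and 5 fell without both DKO-severe 1 and 2.

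Among 18 other amino acid transporters tested, 7 rose, 4 fell and 7 did not pass in DKO-severe against WT, with a median of 0.42. Over all genes, 26.6% rose and 25.9% fell. Slc1a4 (ASCT1), the relative of Slc1a5 that carries serine and alanine, averaged 2.4 ± 1.3 CPM (WT), 14.3 ± 9.0 CPM (DKO-moderate) and 38.5 ± 6.7 CPM (DKO-severe), a log2 fold change of 3.99 between DKO-severe and WT (SE 0.54, edgeR adjusted p = 0.000102). No WT library exceeded 4.1 CPM of Slc1a4, and no DKO-severe library was under 28.5 CPM. Slc43a3, a purine nucleobase carrier of a family otherwise known for amino acids, was at 4.1 ± 1.2, 10.8 ± 1.8 and 26.4 ± 7.3 CPM and passed in all 3 comparisons (2.67 in DKO-severe against WT, adjusted p = 1.19e-05). Slc16a10, an aromatic amino acid transporter, fell from 17.8 to 10.3 CPM (-0.79, adjusted p = 0.0012), and Slc38a9, the lysosomal arginine sensor of mTORC1, from 38.3 to 26.8 CPM (-0.52, adjusted p = 0.00318). In DKO-moderate 4 of 18 rose and 0 fell, with 2 rising without WT 1, WT 2 or DKO-moderate 2. Without both DKO-severe 1 and 2, 6 rose and 2 fell in DKO-severe, and with library size alone 7 rose and 2 fell.

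Of 18 genes of iron handling besides Tfrc, 4 rose, 5 fell and 9 did not pass in DKO-severe. Fth1, the ferritin heavy chain that stores iron, was at 542.5 ± 30.2 CPM in WT and 361.6 ± 35.7 in DKO-severe (-0.59, edgeR adjusted p = 0.000595), and the groups did not overlap. Slc25a37, the mitochondrial iron importer mitoferrin, fell from 61.2 to 34.7 CPM (-0.82, adjusted p = 0.00101). Steap3, an endosomal ferrireductase of the transferrin cycle, rose from 0.9 ± 0.4 to 7.1 ± 4.6 CPM (3.05, adjusted p = 0.00106), and Hmox1, which breaks down heme, from 13.1 ± 13.4 to 40.2 ± 13.0 CPM (1.61, adjusted p = 0.0433). Myeloid cells also express both, and the part of the monocyte and macrophage markers in these rises was not tested. Aco1, which doubles as iron regulatory protein 1, rose by 0.37, while Ireb2, iron regulatory protein 2, did not pass (log2 fold change -0.21). In DKO-moderate 1 of 18 passed, Slc11a2 (0.34), the iron transporter DMT1, which was not called without WT 4 or without DKO-moderate 2, and with CD3 scaling 0 rose and 4 fell (edgeR). Without both DKO-severe 1 and 2, 2 rose and 3 fell. The number that rose was 2 also with any 1 of WT 1, WT 2, WT 4, DKO-severe 1 or DKO-severe 3 left out, 6 without WT 3 and 1 with scaling to CD3 transcripts.

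The amino acid response list, ATF4 targets and enzymes of serine and asparagine synthesis, had 7 of 19 genes higher and 4 lower in DKO-severe, with a median of 0.43. The counts were 10 and 3 with library size alone, 5 and 5 with CD3 scaling, 0 and 2 with the plasma cell term, and 5 and 4 without both DKO-severe 1 and 2, where the median was 0.05. Atf4 itself, the transcription factor of the amino acid response, averaged 264.6 ± 54.0, 202.1 ± 29.3 and 137.3 ± 9.5 CPM from WT to DKO-moderate to DKO-severe (DKO-severe against WT -0.95, edgeR adjusted p = 0.000203). Trib3, an ATF4 target, fell from 6.9 to 1.3 CPM (-2.46, adjusted p = 1.59e-05). By contrast, Asns, the asparagine synthetase and likewise an ATF4 target, averaged 0.7 ± 0.2, 4.6 ± 2.0 and 5.5 ± 2.1 CPM in that order (2.94, adjusted p = 9.24e-05), and Psat1, of serine synthesis, 40.0 ± 3.7, 70.1 ± 10.9 and 80.5 ± 11.4 CPM (1.01, adjusted p = 6.55e-05). Both also passed in DKO-moderate against WT (2.66 and 0.81). Slc38a2 is a known ATF4 target. Between WT and DKO-severe it fell, as Atf4 and Trib3 did, while Asns and Psat1 rose. More genes of the list were higher than lower, and a link between Slc38a2 and Atf4 was not tested.

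In the list of mTORC1 and amino acid sensing, 6 of 32 genes rose, 9 fell and 17 did not pass in DKO-severe, and in DKO-moderate 2 rose and 3 fell. The DKO-moderate counts were 0 higher and 10 lower with CD3 scaling, 0 and 0 (edgeR) without WT 1 or without WT 2, and 3 and 5 without DKO-moderate 3. The sestrins, which restrain mTORC1, split. Sesn3 went from 120.3 ± 11.6 to 265.1 ± 38.0 CPM (1.14, edgeR adjusted p = 0.000892) and Sesn2, the leucine sensor, from 6.2 ± 1.5 to 12.4 ± 3.1 CPM (1.0, adjusted p = 0.0026). Sesn1 went from 119.5 ± 13.0 to 36.4 ± 18.5 CPM (-1.72, adjusted p = 0.000497), with the highest DKO-severe library at 62.1 CPM and the lowest WT library at 105.3 CPM. Mios, of the GATOR2 complex, fell from 50.3 to 32.0 CPM (-0.65, adjusted p = 0.000208). With 1 library left out, 3 (without WT 1 or WT 4) to 6 genes rose and 6 to 11 fell. Under the other scalings 3 to 8 rose and 4 to 15 fell, and the median of the list changed sign (-0.24 to 0.10).

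Of 8 genes of glucose, lactate and lipid uptake, 3 rose, 2 fell and 3 did not pass in DKO-severe. Slc2a6, a lysosomal hexose transporter of the GLUT family, averaged 0.6 ± 0.5 CPM (WT), 8.1 ± 6.0 CPM (DKO-moderate) and 32.0 ± 12.3 CPM (DKO-severe; 5.66, SE 0.76, edgeR adjusted p = 8.79e-05), and Slc16a3, the lactate exporter MCT4, at 2.2 ± 0.9, 9.2 ± 4.5 and 21.6 ± 8.9 CPM (3.29, adjusted p = 0.000136). Slc2a3 (GLUT3) fell from 63.7 to 47.7 CPM (-0.42, adjusted p = 0.00655), and Slc2a1 (GLUT1), the glucose transporter raised on T cell activation, averaged 53.2, 47.7 and 50.9 CPM from WT to DKO-severe (-0.06 in DKO-severe against WT, not past the threshold). Without both DKO-severe 1 and 2, these counts were 3 and 2, and without WT 3 they were 5 and 2.

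The activated T cell markers moved with these differences, their sums spanning 424.6 to 611.0 CPM (WT), 913.9 to 1460.7 CPM (DKO-moderate) and 1586.9 to 2263.3 CPM (DKO-severe). Of the 8, 7 rose and 1, Cd69, fell in DKO-severe against WT, and 7 rose and 1 did not pass in DKO-moderate against WT. Plasma cells carry CD98, and the plasma cell markers summed to 61.8 to 162.6 CPM (WT), 88.2 to 135.9 CPM (DKO-moderate) and 200.9 to 367.8 CPM (DKO-severe). Sdc1, the plasma cell surface marker, reached at most 6.7 CPM and Tnfrsf17, the receptor BCMA, at most 0.3 CPM. Jchain ran from 43.1 to 162.8 CPM and Xbp1 from 112.5 to 159.7 CPM in DKO-severe, against 0.3 to 79.9 and 48.6 to 57.8 CPM in WT. Of the 8 markers, 4 rose and 0 fell in DKO-severe against WT. With the mean log2 CPM of the plasma cell markers as a term, 0 of the 4 edgeR calls of DKO-severe against WT were left (2 of the 9 genes at an unadjusted p under 0.05). Slc38a2 was at -0.92 (SE 0.28, edgeR adjusted p = 0.0514), Myc at -0.55 (SE 0.30), Slc1a5 at 0.66 (SE 0.24) and Tfrc at 0.57 (SE 0.34), and 2187 genes of the whole table passed.

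As a description of shape, the genes whose profile over 12 libraries lay closest to Myc were Hist2h2be, Esyt1 and Mtm1 (root mean square difference of centred log2 CPM 0.156, 0.159 and 0.161, against a median of 0.42 over 9996 genes with a mean of at least 5 CPM). Those closest to Slc7a5 were Gtpbp8, Pspc1 and Nipsnap3b (0.1, 0.103 and 0.104, median 0.296), and those closest to Tfrc were Pts, Nfxl1 and 1110007C09Rik (0.143, 0.165 and 0.189, median 0.461). Esyt1, the highest of these, averaged 603.1, 428.4 and 361.2 CPM from WT to DKO-moderate to DKO-severe.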

How the data were processed

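Libraries were made with a strand-marking kit and sequenced as paired ends. The authors aligned reads to mm10 with STAR 2.7.11, kept uniquely mapped reads and deposited raw counts per gene from htseq-count with reverse strand. The annotation is not given in the sources used here. Between 18.53% and 23.73% of entries were not assigned to a gene by htseq-count, for any reason, and were left out.

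Counts were tested with edgeR 4.0.16 (quasi-likelihood F test, TMM scaling, 3 groups in one fit of 12 libraries) over the 16035 genes with at least 10 reads summed over a condition, Benjamini-Hochberg adjusted at 0.05. SE is the log2 fold change over the square root of F. CPM and ratios of single genes were compared by exact two-sided permutation. Mean ± values are SD over 4 mice. Libraries within a group differed beyond sampling noise (chi-square per degree of freedom at least 22.9). The step was tested on simulated data.

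The genes, lists and tests were chosen with earlier results of these data known. All 10 genes are named. From each list the 2 largest rises and 2 largest falls past the threshold with at least 5 CPM in the higher group are named, except for an item not reported here. Ireb2, Aco1, Slc11a2 and Slc2a1 were added for their role, after their values were seen. Of the list entries 220 were found by symbol or older symbol. Exon lengths and 3′ UTRs come from GENCODE M21 and promoters from RefSeq (GRCm38.p6).

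Alternatives were DESeq2 1.42.0, limma 3.58.1 voom with quality weights, other scalings and filters, a replicate block, terms for Y-linked genes (sex is not in the labels) or marker lists, and leaving out libraries. A term was the centred mean of log2 CPM over the genes of a list, and not the summed CPM given in the text. Leaving out both DKO-severe 1 and 2, with or without WT 3, was chosen after seeing the data.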

Additional observations from a re-analysis of the deposited data

How the results depend on the processing

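In DKO-severe against WT, 24 of the 28 alternatives gave a count within 1.5 times the 4 genes reported, and 3 to 5 genes passed with 1 library left out. The count was 1 with terms for neutrophil and B cell markers, 0 with a plasma cell term, 2 with an erythroid term and 0 with a proliferation term. In DKO-moderate against WT (2 genes), it was 1 with library size alone, 4 with scaling to CD3 transcripts, 1 with only the groups compared, 1 with terms for neutrophil and B cell, plasma cell or erythroid markers, 0 with the proliferation term, 1 without both DKO-severe 1 and 2 and 0 also without WT 3, and 1 to 3 with 1 library left out. In DKO-severe against DKO-moderate (2 genes), it was 5 with limma voom, 1 without a filter, 0 with DESeq2 size factors, library size alone, CD3 scaling, only the groups compared, any marker term or either set of libraries left out, and 0 to 3 with 1 library left out. Slc38a2 changed sign with the proliferation term, to 0.25, 0.14 and 0.11 in the 3 comparisons (edgeR, not past the threshold), and Slc3a2 in DKO-moderate against WT with CD3 scaling (-0.25). Values that did not pass in either setting also changed sign, among them Max in DKO-severe against WT (-0.27, and 0.29 with the proliferation term). The cause was not tested.

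Replicate numbers are shared across groups by number only. Residuals of libraries with the same number correlated at a median of -0.034. With a replicate block the counts were 4, 2 and 1, Max being lost in DKO-severe against DKO-moderate (-0.35, adjusted p = 0.0655), and 7794, 2201 and 2321 of all genes passed.

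Over all genes, calls in the order of the comparisons above went from 8428, 2734 and 3217 to 3149, 2272 and 193 with the neutrophil and B cell terms, 2187, 2000 and 0 with the plasma cell term, 2979, 2003 and 15 with the erythroid term, and 0, 90 and 0 with the proliferation term. limma voom gave 6126 and DESeq2 4169 in DKO-severe against DKO-moderate, CD3 scaling gave 4226 in DKO-moderate against WT. Without WT 1 or 2, 1619 and 1706 passed in DKO-moderate against WT, and without DKO-moderate 1 or 3 or DKO-severe 1 or 4, 1630, 1806, 1953 and 1978 passed in DKO-severe against DKO-moderate. The share of calls that were higher in DKO-severe against WT was 50.7%, and 66.5% with library size alone, where the median of all genes was 0.18 instead of -0.01. With CD3 scaling that median was -0.16 in DKO-severe and -0.25 in DKO-moderate, and 32.9% instead of 72.2% of the DKO-moderate calls were higher. In DKO-severe against DKO-moderate the share went from 46.9% to 59.6% (DESeq2 size factors), 64.9% (library size alone) and 69.9% (CD3 scaling).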
